A study of Mus musculus with 2 samples.

Results

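The enzymes that build purine nucleotides from small precursors were followed in immune cells of mouse mammary tumors through 10 genes, chosen by name from the pathway and not by their values: Prps1, Prps2, Ppat, Gart, Pfas, Paics, Adsl, Atic, Impdh1 and Impdh2. They are 10 of the 32285 genes counted, and all 10 had transcripts in kept cells of both libraries. The data are 2 single-cell RNA libraries, each a pool of tumors from 10 female mice aged 6 to 12 weeks that carried AT3 tumors, a mouse mammary carcinoma line, for 30 days. Library here means the deposited counts of 1 genotype, and the study's methods describe pooling the sorted cells of both genotypes. The library called WT came from Pgdfl/fl mice, which hold loxP sites in Pgd but no Cre. The library called 6PGDKO came from Pgdfl/fl LysMCre mice, in which Cre is inserted in the lysozyme gene Lyz2 and is active in myeloid cells, so that Pgd is deleted in macrophages, monocytes and neutrophils and not by design in lymphocytes. With 1 library per genotype no test between the genotypes was possible. All intervals are exact 95% intervals on the counts of unique molecular identifiers (UMIs, 1 per captured transcript), cover counting error only, and say nothing of the spread between mice. Where a count is 0, the limit printed is instead that of 3 counts.

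De novo purine synthesis starts from ribose 5-phosphate, the product of the pentose phosphate pathway in which 6-phosphogluconate dehydrogenase (the product of Pgd) catalyses an oxidative step. Prps1 and Prps2 encode isozymes that activate this sugar to phosphoribosyl pyrophosphate. Ppat commits that compound to purines, and Gart, Pfas, Paics, Adsl and Atic assemble the ring step by step to inosine monophosphate. Impdh1 and Impdh2 encode isozymes that turn inosine monophosphate towards guanine nucleotides. The pathway is known to be used most by dividing cells, which need nucleotides for DNA and RNA, whereas resting lymphocytes recycle purines through salvage enzymes such as Hprt.

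The promoters were read from RefSeq for 9 of the 10 genes (build GRCm38.p6, the same assembly as the mm10 build of the libraries). A window of 300 bases held the E-box CACGTG, a palindrome bound by Myc and related factors, in 3 of the 9 genes, Impdh2, Paics and Atic, against 7.15% of 32851 promoter windows of the same length. Stretches before the start of these 3 genes are shown with the E-box in capitals. Impdh2 lies on chromosome 9 (chr9:108560186-108560435, plus strand), Atic on chromosome 1 (chr1:71556906-71557155, plus strand) and the Paics stretch on chromosome 5 (chr5:76951087-76951116, plus strand).
Impdh2: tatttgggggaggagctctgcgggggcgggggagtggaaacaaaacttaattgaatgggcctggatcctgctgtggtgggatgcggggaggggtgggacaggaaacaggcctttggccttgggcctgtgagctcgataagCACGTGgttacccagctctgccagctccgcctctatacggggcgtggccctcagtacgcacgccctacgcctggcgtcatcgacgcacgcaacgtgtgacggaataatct
Atic: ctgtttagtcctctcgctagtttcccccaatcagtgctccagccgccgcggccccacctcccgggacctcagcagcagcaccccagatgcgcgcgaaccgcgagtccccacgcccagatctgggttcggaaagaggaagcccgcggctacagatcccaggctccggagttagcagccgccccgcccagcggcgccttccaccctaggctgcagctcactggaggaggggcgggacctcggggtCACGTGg
Paics: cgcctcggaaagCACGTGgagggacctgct
The first base of the E-box lay 110 bases before the annotated start of Impdh2, 203 before that of Paics and 7 before that of Atic. Paics and Ppat are neighbours on chromosome 5 that point in opposite directions, and their annotated starts are 276 bases apart, with the 5′ ends overlapping. The core GCGGGAA of an E2F site (either strand) was found in the windows of Prps1, Prps2 and Ppat, against 4.60% of all windows, and TGATGNAA, the core of an amino acid response element (either strand), only in that of Prps1, against 3.97%. These matches are letters in a window and were not measured as bound sites.

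After the removal of barcodes with few or very many genes or much mitochondrial RNA, 3565 of 3728 WT barcodes and 2798 of 3014 6PGDKO barcodes remained. They held 26959415 and 28447905 gene UMIs, with medians of 5554 and 7926 per cell, and the libraries shared 0 barcodes. The 10 purine genes together gave 7097 UMIs in the WT and 7442 in the 6PGDKO library. Of the 18 clusters, 16 could be named from lineage markers, and 2 stay unnamed. T cells were the most numerous, although the labels also speak of a CD11b+ sort, and cells with keratin transcripts were present in spite of the CD45+ sort. The targeted gene went with the labels: in non-cycling macrophages Pgd was at 107 CPM (UMIs of a gene per 1000000 UMIs of all genes in the group; 99.6 to 114) in WT and 29.1 (25.5 to 33.0) in 6PGDKO, and in non-cycling monocytes at 75.4 (61.0 to 92.0) and 29.6 (24.3 to 35.8). In non-cycling T cells, in which LysMCre is not known to act, Pgd stood at 24.6 (21.2 to 28.4) and 30.1 (25.3 to 35.5). Cells with at least 3 UMIs of the proliferation genes Mki67 and Top2a together were called cycling, which gave 244 WT and 305 6PGDKO cells, and of all kept cells 97 held exactly 3 such UMIs and 226 exactly 2. Because a UMI stands for a molecule, these levels can be compared between genes without a correction for length.

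In non-cycling cells the summed level of the 10 genes was lowest in neutrophils and highest in the keratin-positive epithelial tumor cells. The epithelial tumor cells held 348 (307 to 393) CPM in WT and 330 (296 to 366) in 6PGDKO. Natural killer and innate lymphoid cells followed with 292 (260 to 326) and 292 (259 to 328). Their intervals overlap those of the epithelial tumor cells and those of the T cells in both libraries. T cells were next at 269 (257 to 281) and 251 (237 to 266). The order among the T cells and the unnamed cluster led by H2-M5, Epcam and Cd207, at 253 (226 to 283) and 268 (245 to 293), could not be told from the counts. Dendritic cells (DCs) stood at 219 (194 to 246) and 229 (207 to 252), macrophages at 216 (206 to 227) and 217 (207 to 228), and monocytes at 218 (193 to 245) and 205 (191 to 221), and the intervals of these myeloid groups overlap within each library. The second unnamed cluster, led by the mast cell proteases Mcpt2, Mcpt1 and Cma1, was at 224 (180 to 276) and 222 (182 to 268). B cells were at 202 (184 to 222) in WT, where 553 cells were measured, and at 251 (172 to 354) in only 35 cells of 6PGDKO. Neutrophils held 14 UMIs of the 10 genes in 57 WT cells, or 102 CPM (55.7 to 171), and 7 UMIs in 71 6PGDKO cells, or 42.9 (17.2 to 88.3). No UMI of Prps2, Ppat or Pfas was seen in non-cycling neutrophils of either library, which in WT allows up to 21.8 CPM for each by the limit of 3 counts, so the single genes could not be ranked there at this depth.

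Outside the neutrophils the genes kept a broad order in most cell types. Impdh2 and Paics, a bifunctional enzyme of the middle of the pathway, were the most abundant transcripts in most groups, and Pfas, which adds an amide nitrogen to the forming ring, was among the least abundant. Prps1 instead had the highest value in DCs, at 63.9 CPM in WT and 51.1 in 6PGDKO. In 6PGDKO DCs Impdh2 was at 49.9 and Paics at 47.1, so the order there could not be told from the counts. Prps1 also had the highest value in the unnamed H2-M5 cluster of WT, at 66.1. Its interval there overlaps that of Impdh2, at 49.8 (38.1 to 63.9). In non-cycling macrophages Impdh2 stood at 55.9 (50.7 to 61.5) CPM in WT and 54.7 (49.7 to 60.0) in 6PGDKO, and Paics at 36.8 (32.6 to 41.4) and 40.2 (36.0 to 44.8). Pfas was at 3.69 (2.45 to 5.34) and 4.08 (2.81 to 5.73) in the same cells. Ppat, which carries the committing step, was at 8.05 (6.15 to 10.3) and 5.57 (4.06 to 7.45) in macrophages and at 16.3 (13.5 to 19.5) and 14.6 (11.3 to 18.5) in T cells, so it was higher in T cells in both libraries with intervals apart. The epithelial tumor cells had the highest Paics level, 76.7 (58.2 to 99.2) in WT and 78.7 (62.8 to 97.5) in 6PGDKO, and the highest Atic level, 52.9 (37.8 to 72.0) and 46.9 (34.8 to 61.8). The Atic intervals overlap those of the natural killer and innate lymphoid cells and of the mast cell protease cluster in both libraries. The Paics interval overlaps those of both groups in 6PGDKO, and in WT that of DCs, at 47.9. Groups with few UMIs, such as the WT neutrophils, overlap for both genes. Atic catalyses the last steps to inosine monophosphate.

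**Figure D1:**
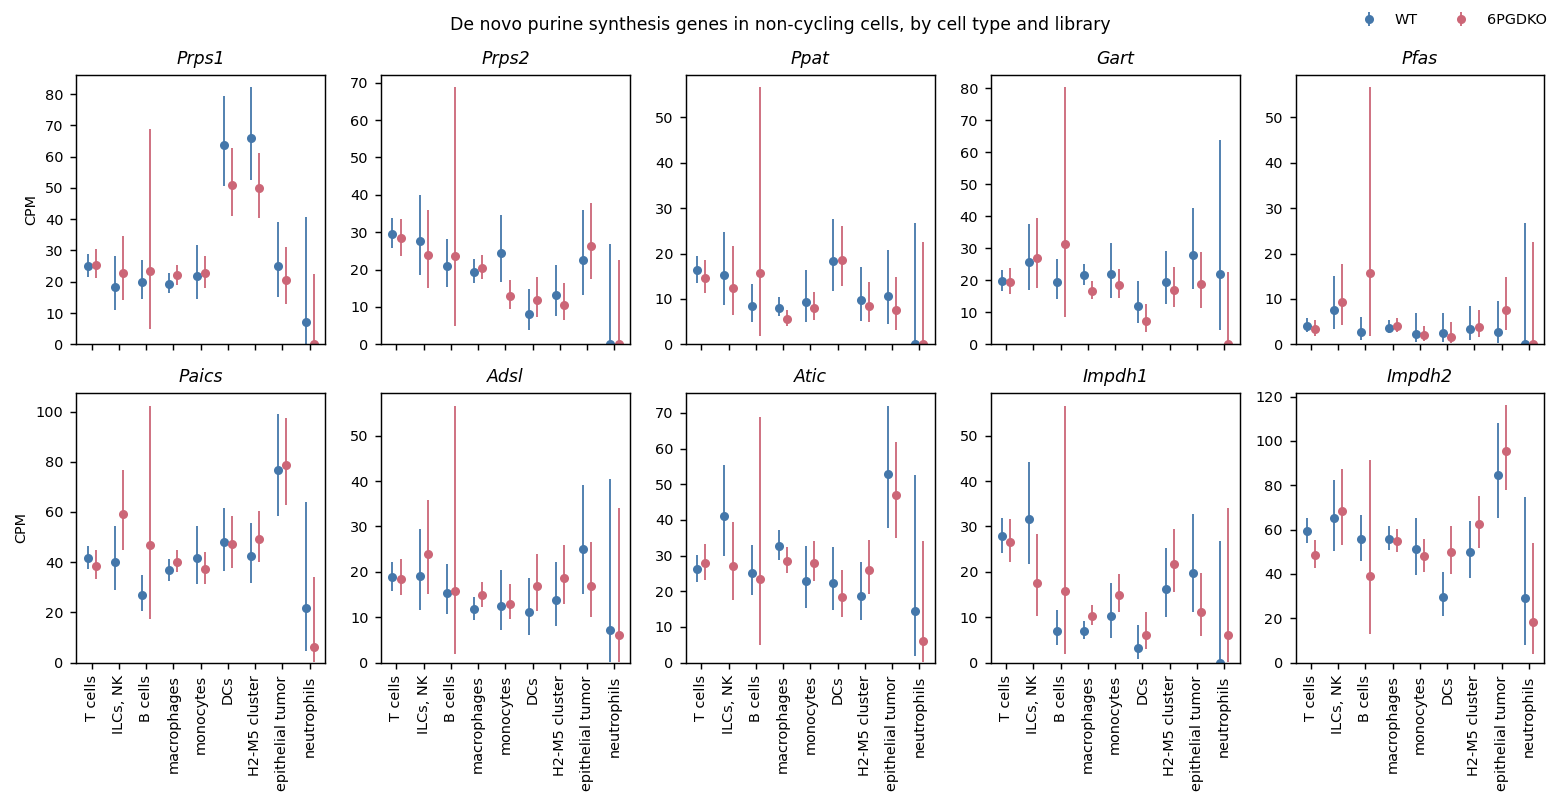
Level of each of the 10 genes in non-cycling cells (CPM, linear axis from 0, scale differing between panels) for 9 cell groups, with WT in blue and 6PGDKO in red; points are 1 library each and bars the exact 95% counting interval. Prps1 stands out in DCs and in the H2-M5 cluster, Impdh1 is higher in T cells (27.8 in WT) than in macrophages (6.99), and bars are widest in neutrophils and in the 35 B cells of 6PGDKO.

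The isozymes of the first and last steps differed most between cell types. Prps1 was at 63.9 (50.6 to 79.5) CPM in WT DCs and 51.1 (41.1 to 62.7) in 6PGDKO DCs, and at 66.1 (52.5 to 82.2) and 49.9 (40.4 to 61.1) in the H2-M5 cluster. Macrophages held 19.4 (16.4 to 22.8) and 22.0 (18.9 to 25.5), and T cells 25.1 (21.7 to 29.0) and 25.5 (21.1 to 30.6). Prps1 thus made up 88.9% (80.5 to 94.5) of Prps1 plus Prps2 UMIs in WT DCs and 81.2% (72.8 to 88.0) in 6PGDKO DCs, against 50% (44.1 to 55.9) and 51.9% (46.5 to 57.3) in macrophages. In the H2-M5 cluster the share was 83.5% (74.6 to 90.3) and 82.5% (74.2 to 88.9). The DCs themselves were unequal. In the cluster led by Fscn1, Ccl22 and Ccr7, genes of mature migratory DCs, Prps1 reached 101 (79.4 to 127) and 69.6 (55.5 to 86.2), whereas the cluster led by Xcr1 and Clec9a, markers of cross-presenting DCs, was at 11.5 (4.22 to 25) and 12.2 (4.89 to 25.1). The intervals of these 2 DC clusters are apart in both libraries.

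For the last step, Impdh1 was scarcer than Impdh2 in non-cycling cells of every type, but its share varied. In T cells Impdh1 stood at 27.8 (24.2 to 31.9) CPM in WT and 26.6 (22.1 to 31.7) in 6PGDKO, and in macrophages at 6.99 (5.24 to 9.14) and 10.3 (8.18 to 12.7). Impdh2 was therefore 68.1% (64.4 to 71.7) of both in WT T cells and 64.6% (59.3 to 69.7) in 6PGDKO T cells, but 88.9% (85.7 to 91.6) and 84.2% (80.8 to 87.2) in macrophages. Innate lymphocytes were closer to T cells at 67.3% (57.3 to 76.3) and 79.5% (69.2 to 87.6), and WT B cells to macrophages at 88.8% (82.2 to 93.6). Among non-cycling T cells, Impdh2 was lowest in the cluster led by Foxp3, Il2ra and Ctla4, genes of regulatory T cells, with 40.2 (30.9 to 51.4) and 38.8 (29.4 to 50.3), and highest in the cluster led by Lef1 and Tcf7, genes of naive T cells, with 73.1 (62.6 to 84.9) and 74.1 (43.9 to 117). The intervals of these clusters were apart in WT and overlapped in 6PGDKO. Impdh1 was at 36.4 (27.5 to 47.1) and 34.0 (25.3 to 44.9) in the Foxp3 cluster and at 25.5 (19.5 to 32.8) and 24.7 (9.07 to 53.8) in the Lef1 cluster. Clusters were made without the purine genes.

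**Figure D2:**
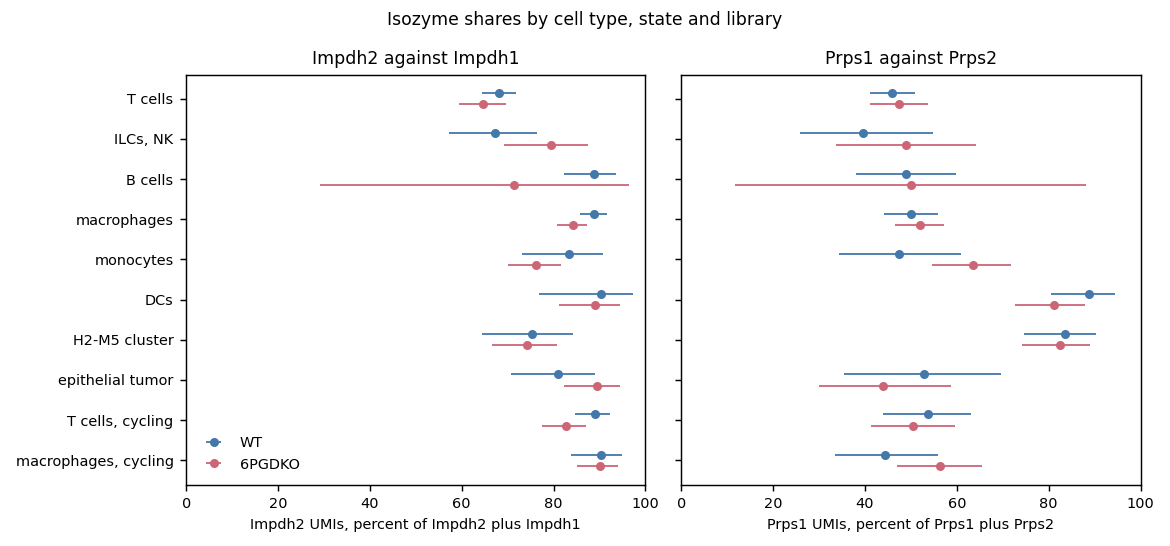
Share of Impdh2 in Impdh1 plus Impdh2 UMIs (left) and of Prps1 in Prps1 plus Prps2 UMIs (right), in percent, for non-cycling cells of 8 groups and, in the lowest rows, cycling T cells and macrophages; WT in blue, 6PGDKO in red, bars the exact (Clopper-Pearson) 95% interval. The Impdh2 share of cycling T cells (88.9% in WT) lies near that of macrophages, and only DCs and the H2-M5 cluster have Prps1 shares above 75% in both libraries.

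The first comparison asked how the pathway differs between cycling and non-cycling cells of the same type and library. In T cells the summed level was 506 (472 to 542) CPM in 126 cycling WT cells against 269 in 1459 non-cycling ones, a log2 ratio of 0.91 (0.79 to 1.03). In 6PGDKO T cells it was 420 (390 to 451) in 126 cycling against 251 in 852 non-cycling cells, a log2 ratio of 0.74 (0.60 to 0.87). In WT T cells 7 of the 10 genes were higher by a fold of 1.5 or more, where 21.0% of 9666 genes with at least 30 UMIs were. In 6PGDKO T cells 4 of 10 were, where 16.8% of 9069 genes were. None was lower by that fold, where 14.5% of genes were in WT and 13.1% in 6PGDKO. The median log2 ratio was 0.98 over the 10 genes and 0.06 over all genes in WT, and 0.46 and 0.00 in 6PGDKO. Cycling cells were deeper, with median totals of 11086.5 UMIs (WT) and 12166.5 (6PGDKO) against 4701 and 4702.5 in non-cycling T cells. With cells thinned to 3000 UMIs the summed ratio was 0.96 (0.73 to 1.18) in WT and 0.59 (0.31 to 0.87) in 6PGDKO. Thinning kept only 1222 of the 1459 non-cycling WT T cells and 685 of the 852 in 6PGDKO, so it also changed which cells were compared. The states also lie in different clusters. A T cell cluster led by Hist1h2ap, Hist1h1b and Pclaf held 96 of the 126 cycling T cells in WT and 94 of 126 in 6PGDKO, but only 18 and 6 of the non-cycling ones, so the ratios mix state with cluster. Within that cluster the 96 cycling and 18 non-cycling WT cells had a summed ratio of 0.07 (-0.28 to 0.45). Within the Foxp3 cluster it was 0.80 (0.36 to 1.21) in WT, from 18 cycling cells, and 1.06 (0.68 to 1.43) in 6PGDKO, from 17. These values within clusters were chosen after seeing the data.

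Impdh2 and Paics had the largest counts behind their ratios. Impdh2 was at 154 (135 to 174) CPM in cycling WT T cells and 59.5 (54.1 to 65.3) in non-cycling ones, and at 122 (106 to 139) and 48.6 (42.4 to 55.4) in 6PGDKO, so the log2 ratios were 1.37 (1.14 to 1.6) and 1.33 (1.05 to 1.6). Paics was at 89.7 (75.7 to 106) against 41.7 (37.2 to 46.6) in WT and 79.2 (66.6 to 93.5) against 38.6 (33.1 to 44.7) in 6PGDKO, log2 ratios of 1.10 (0.81 to 1.39) and 1.04 (0.71 to 1.37). Both genes thus stood at more than 2 times the level of non-cycling T cells in each library. With cells thinned to 3000 UMIs the Impdh2 ratio was 1.43 (0.97 to 1.87) in WT and 0.74 (0.11 to 1.33) in 6PGDKO, and the Paics ratio 1.11 (0.50 to 1.68) and 0.89 (0.16 to 1.57). Ppat also lay above 0 in both libraries, at 0.95 (0.45 to 1.43) and 0.78 (0.20 to 1.35). Pfas was at 1.11 (0.08 to 2.07) and 2.0 (1.0 to 3.05), from only 14 and 23 UMIs in cycling cells. In WT the Pfas value fell to 0.55 (-0.89 to 1.78) without cells that carried markers of another lineage, and with cells thinned it was 0.08 (-3.07 to 2.13) in WT and 0.99 (-1.11 to 2.75) in 6PGDKO. Prps1 was higher by less, at 0.54 (0.09 to 0.97) and 0.47 (0.00 to 0.93).

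The Impdh isozymes parted in T cells. Impdh1 was at 19.2 (13.0 to 27.2) CPM in cycling WT T cells against 27.8 in non-cycling ones, a log2 ratio of -0.54 (-1.13 to 0.01), and at 25.6 (18.7 to 34.3) against 26.6 in 6PGDKO, a ratio of -0.05 (-0.58 to 0.45). The Impdh2 share of both Impdh transcripts was 88.9% (84.7 to 92.4) in cycling WT T cells and 82.6% (77.5 to 87.0) in cycling 6PGDKO T cells, above the shares of non-cycling T cells given before, with intervals apart. The Prps isozymes could not be told apart in this way. Prps2 had T cell ratios of 0.09 (-0.37 to 0.54) and 0.29 (-0.17 to 0.74), with intervals that overlap those of Prps1, and the Prps1 share, 53.6% (43.9 to 63.2) and 50.4% (41.2 to 59.5), overlapped that of non-cycling T cells. In macrophages Prps2 was at 0.69 (0.18 to 1.18) in WT and 0.31 (-0.17 to 0.77) in 6PGDKO, and Prps1 at 0.37 (-0.20 to 0.90) and 0.57 (0.14 to 0.99). The WT value of Prps2 was 0.39 (-0.45 to 1.15) without cells that carried markers of another lineage and -1.18 (-4.28 to 0.79) with cells thinned. Gart, Adsl and Atic had larger ratios in WT than in 6PGDKO. Gart, a multifunctional enzyme of the early steps, had 1.24 (0.82 to 1.65) in WT, or 0.72 (-0.30 to 1.61) with cells thinned, and 0.20 (-0.39 to 0.75) in 6PGDKO. For Adsl, which splits off fumarate, the ratios were 0.93 (0.46 to 1.38) and 0.40 (-0.16 to 0.95), and for Atic 1.00 (0.62 to 1.38) and 0.45 (0.00 to 0.89). These differences between libraries were not tested.

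**Figure D3:**
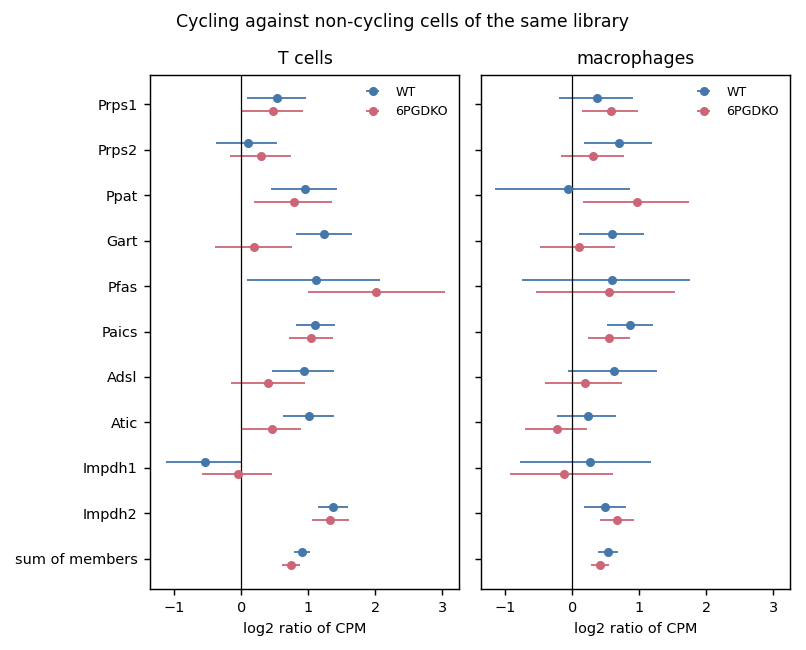
Log2 ratio of the level in cycling over that in non-cycling cells for each gene and for their sum, in T cells (left) and macrophages (right), WT in blue and 6PGDKO in red; bars are exact 95% counting intervals and the vertical line marks no difference. In T cells Impdh2 (1.37 and 1.33) and Paics (1.10 and 1.04) lie to the right in both libraries, while Impdh1 and Prps2 overlap 0; the macrophage sums (0.53 and 0.41) are smaller than those of T cells.

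Macrophages showed a smaller difference between the states. Their summed level was 313 (284 to 343) CPM in 80 cycling WT cells against 216, a log2 ratio of 0.53 (0.38 to 0.68), and 289 (266 to 314) in 96 cycling 6PGDKO cells against 217, a ratio of 0.41 (0.28 to 0.55). In WT macrophages 5 of 10 genes were higher by a fold of 1.5, where 15.6% of 9921 genes were, and in 6PGDKO 2 of 10, where 13.9% of 10176 genes were. None was lower, where 8.62% and 6.96% of genes were. Paics and Impdh2 again had intervals above 0 in both libraries. Paics was at 66.8 (54.1 to 81.6) in cycling WT macrophages and 59.1 (48.9 to 70.7) in cycling 6PGDKO macrophages, with ratios of 0.86 (0.51 to 1.20) and 0.55 (0.24 to 0.86). Impdh2 was at 78.7 (64.8 to 94.6) and 86.9 (74.5 to 101), with ratios of 0.49 (0.18 to 0.80) and 0.67 (0.41 to 0.92). The summed cycling ratio was larger in T cells than in macrophages in both libraries, with intervals apart, but with cells thinned to 3000 UMIs the macrophage ratios were 0.44 (0.06 to 0.80) and 0.53 (0.16 to 0.87) and their intervals overlapped those of the thinned T cells. Ppat differed in its value between libraries, at -0.07 (-1.15 to 0.87) from 11 UMIs in cycling WT macrophages and 0.97 (0.17 to 1.74) from 22 in 6PGDKO. Of the cycling macrophages, 32.5% in WT and 60.4% in 6PGDKO carried 2 or more UMIs of the T cell receptor complex genes Cd3d, Cd3e and Cd3g, against 20.9% and 29.6% of the non-cycling ones. Without cells that carried markers of another lineage the macrophage ratio was 0.77 (0.57 to 0.96) in WT, from 48 cycling cells, and 0.55 (0.31 to 0.78) in 6PGDKO, from 33, which overlapped the T cell ratios of 0.85 (0.71 to 0.99) and 0.69 (0.54 to 0.85) taken in the same way. The part of these cells in the ratios was not tested further. A macrophage cluster led by Hist1h2ae, Hist1h2ap and Mki67 held 41 of the 80 cycling WT and 47 of the 96 cycling 6PGDKO macrophages and only 5 and 1 non-cycling ones. Within the main cluster, led by Vcam1 and Apoe, the summed ratio was 0.42 (0.19 to 0.64) in WT, from 36 cycling cells, and 0.19 (-0.02 to 0.40) in 6PGDKO, from 42.

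Other cell types had enough cycling cells only in the 6PGDKO library. There, the 22 cycling DCs were at 352 (304 to 405) against 229 CPM in non-cycling DCs, a log2 ratio of 0.62 (0.37 to 0.87), and the 27 cycling cells of the H2-M5 cluster at 444 (393 to 499) against 268, a ratio of 0.73 (0.51 to 0.94). Impdh2 was higher in both, by log2 ratios of 1.21 (0.72 to 1.69) and 0.95 (0.51 to 1.38). Prps1 had a ratio of -0.55 (-1.35 to 0.17) in DCs and 0.58 (0.04 to 1.10) in the H2-M5 cluster, and Prps2 of 1.40 (0.39 to 2.40) and 1.17 (0.10 to 2.21). The DC ratios mix state with cluster, since 16 of the 22 cycling DCs lay in the Xcr1 cluster and 84 of the 121 non-cycling ones in the Fscn1 cluster, where Prps1 was higher. Within the Xcr1 cluster, with 16 cycling and 37 non-cycling cells, the summed ratio was 1.04 (0.67 to 1.41), that of Impdh2 1.15 (0.52 to 1.80) and that of Prps1 0.70 (-0.95 to 2.40). Impdh1 was lower in the cycling cells of the H2-M5 cluster, at -2.19 (-4.53 to -0.54) from 3 UMIs.

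The levels were also followed along the count of Mki67 and Top2a UMIs, and around the threshold. T cells without such a UMI had a summed level of 260 (248 to 274) in WT and 245 (229 to 262) in 6PGDKO, and those with 1 or 2 had 306 (277 to 337) and 272 (242 to 304). T cells with 3 to 5 were already at 510 (440 to 586) and 396 (319 to 485), close to those with 20 or more, at 464 (410 to 523) and 447 (402 to 496). Just outside and just inside the threshold, T cells with 2 such UMIs stood at 326 (264 to 399) in WT and 265 (206 to 336) in 6PGDKO, and those with 3 at 461 (368 to 570) and 435 (320 to 579). The intervals of these neighbouring counts overlap in both libraries. In macrophages the levels were less separated around the threshold: 273 (229 to 323) and 239 (208 to 274) with 2 such UMIs, 231 (181 to 292) and 237 (188 to 294) with 3, and 361 (301 to 430) and 339 (300 to 383) with 20 or more. Non-cycling T cells with at least 3 UMIs of 10 G1/S genes (the Mcm2 to Mcm7 helicase subunits, Pcna and others) were at 357 (328 to 389) in WT and 330 (300 to 362) in 6PGDKO, against 246 (234 to 259) and 218 (202 to 235) in those with fewer. In non-cycling macrophages the same division gave 245 (228 to 262) and 246 (231 to 261) against 193 (180 to 207) and 184 (171 to 198). Cells with more of these UMIs were also deeper in every case.

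**Figure D4:**
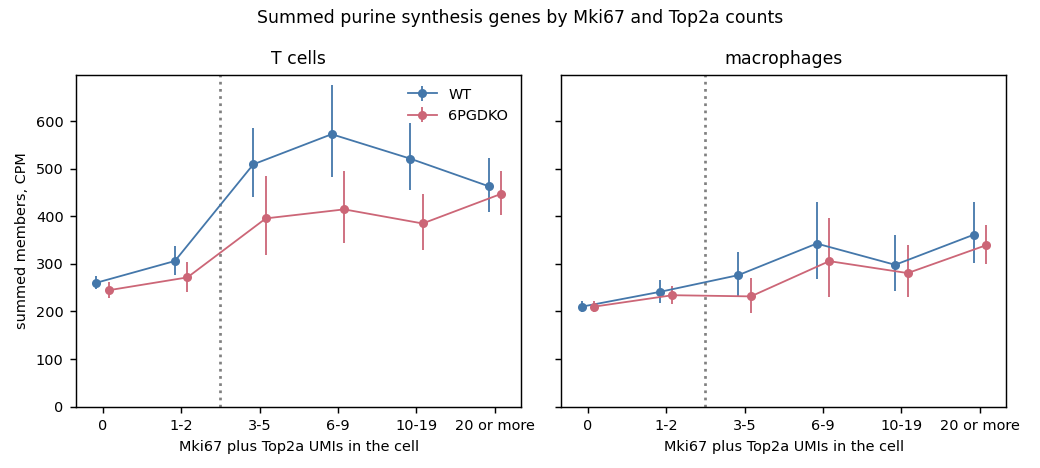
Summed level of the 10 genes (CPM, axis from 0) in T cells (left) and macrophages (right) grouped by the number of Mki67 plus Top2a UMIs in the cell, WT in blue and 6PGDKO in red; bars are exact 95% counting intervals and the dotted line marks the threshold of 3 UMIs. T cells step up at the threshold, to 510 in WT and 396 in 6PGDKO, and macrophages differ less between the groups of cells.

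The second comparison asked how the genes differ between the 6PGDKO and the WT library within a cell type and state. It uses the same cells as the first, so the ratios of both comparisons are not independent. In non-cycling macrophages, where Pgd was lower by a log2 ratio of -1.88 (-2.09 to -1.67), the summed ratio of the 10 purine genes was 0.01 (-0.09 to 0.11). None of the 10 was higher or lower by a fold of 1.5, where 5.57% of 10749 genes were higher and 3.68% lower. Gart was at 16.7 (14 to 19.8) in 6PGDKO and 21.6 (18.4 to 25.2) in WT, a log2 ratio of -0.37 (-0.71 to -0.04), and Impdh1 at 10.3 and 6.99, a ratio of 0.55 (0.04 to 1.08). The intervals of the other 8 genes included 0. With cells thinned to 3000 UMIs those of Gart, at -0.24 (-0.97 to 0.49), and Impdh1, at -0.026 (-1.07 to 1.01), did as well. Without cells that carried markers of another lineage the Gart ratio was -0.27 (-0.70 to 0.15) and that of Impdh1 0.88 (0.15 to 1.64). In non-cycling monocytes, where Pgd was lower by a log2 ratio of -1.35 (-1.76 to -0.94), the summed ratio was -0.09 (-0.29 to 0.12), from 322 6PGDKO and 124 WT cells. This depends on the clustering: at a resolution of 1.6 only 51 and 26 cells kept the monocyte name, and their summed ratio was 1.56 (0.61 to 2.64). Of the 9 genes with 30 UMIs none was higher by a fold of 1.5, where 10.1% of 8306 genes were, and 1 was lower, where 5.33% were. That gene was Prps2, with 13.0 (9.56 to 17.3) in 6PGDKO and 24.3 (16.5 to 34.5) in WT, a ratio of -0.90 (-1.59 to -0.20) that rests on 47 and 31 UMIs.

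In non-cycling T cells the summed ratio was -0.10 (-0.20 to 0.01), and no gene was higher or lower by a fold of 1.5, where 7.26% of 10036 genes were higher and 4.05% lower. Impdh2 was the only member whose interval did not include 0, at -0.29 (-0.53 to -0.06). The libraries hold unequal numbers of the Lef1 Tcf7 cluster, the T cells highest in Impdh2, with 492 WT and 57 6PGDKO cells, and without that cluster the ratio of Impdh2 was -0.18 (-0.44 to 0.09) and the summed ratio -0.04 (-0.15 to 0.08).

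Cycling T cells had a lower summed level in the 6PGDKO library, with a log2 ratio of -0.27 (-0.41 to -0.12), that is 420 against 506 CPM. Pfas was the 1 gene of 10 higher by a fold of 1.5, at 0.60 (-0.42 to 1.67), where 7.37% of 7680 genes were, and Gart the 1 lower, where 5.86% were. Gart was at 22.2 (15.8 to 30.4) CPM in 6PGDKO, from 39 UMIs in 31 cells, and at 46.4 (36.5 to 58.1) in WT, from 75 UMIs in 46 cells, a log2 ratio of -1.06 (-1.66 to -0.49), or -0.62 (-2.12 to 0.79) with cells thinned. Impdh2 had a ratio of -0.34 (-0.61 to -0.07), Adsl of -0.55 (-1.15 to 0.04) and Atic of -0.46 (-0.95 to 0.02). Among T cells with 10 to 19 Mki67 and Top2a UMIs the levels were 385 (329 to 448) in 6PGDKO and 522 (455 to 596) in WT, with intervals apart. In the other groups of cycling T cells the intervals overlap. The levels were 396 (319 to 485) and 510 (440 to 586) with 3 to 5 such UMIs, and 415 (344 to 496) and 573 (482 to 676) with 6 to 9. With 20 or more they were 447 and 464. The cycling T cells of the WT library also included cells with B cell transcripts. There 12.7% carried 2 or more UMIs of Cd79a, Cd79b and Ms4a1, with a summed level of 238 CPM, against 3.99 CPM and 0 of 126 cells in 6PGDKO, which allows a share of up to 2.38%. Macrophage markers were unequal in the other direction, with 2 or more UMIs in 13.5% of WT and 21.4% of 6PGDKO cycling T cells (74.2 and 169 CPM). The part of these cells in the difference was not tested beyond leaving them out, and without cells that carried markers of another lineage the summed ratio was -0.23 (-0.41 to -0.05) and that of Impdh2 -0.29 (-0.63 to 0.04). The Impdh2 interval also included 0 with cycling called at 1 UMI, at -0.19 (-0.43 to 0.04), and at 10 UMIs, at -0.26 (-0.59 to 0.06).

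Cycling macrophages had a summed ratio of -0.11 (-0.29 to 0.07). None of 9 genes was higher by a fold of 1.5, where 9.47% of 8185 genes were, and 2 were lower, where 6.49% were. These were Gart, at 17.9 (12.5 to 24.7) in 6PGDKO and 32.7 (24.0 to 43.5) in WT, a ratio of -0.87 (-1.54 to -0.22), and Atic, at 24.3 (18 to 32.2) and 38.3 (28.8 to 49.8), a ratio of -0.65 (-1.24 to -0.07). The Gart ratio was -0.33 (-0.88 to 0.23) when clustering kept all variable genes, -1.85 (-5.19 to 0.64) with cells thinned and -1.59 (-2.83 to -0.51) without cells that carried markers of another lineage. For Atic these last 2 settings gave -1.38 (-3.06 to 0.12) and -0.59 (-1.59 to 0.35). With cycling called at 1 UMI the Atic ratio was -0.37 (-0.75 to 0.02). Its interval stayed below 0 under the other settings with an interval. The Cd3d, Cd3e and Cd3g transcripts found in cycling macrophages summed to 382 CPM in WT and 667 in 6PGDKO, and their part in the ratio was not tested beyond leaving out those cells. In the non-cycling cells of the types left, the summed ratio was 0.07 (-0.16 to 0.29) in DCs, 0.08 (-0.12 to 0.29) in the H2-M5 cluster, 0.00 (-0.24 to 0.24) in innate lymphocytes, -0.08 (-0.31 to 0.16) in epithelial tumor cells and 0.31 (-0.25 to 0.83) in B cells. It was -0.01 (-0.43 to 0.41) in the mast cell protease cluster and -1.25 (-2.80 to 0.16) in neutrophils, from only 7 and 14 UMIs. Impdh2 was higher in 6PGDKO DCs, at 49.9 (40.1 to 61.4) against 29.5 (20.8 to 40.7), a ratio of 0.76 (0.19 to 1.35).

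**Figure D5:**
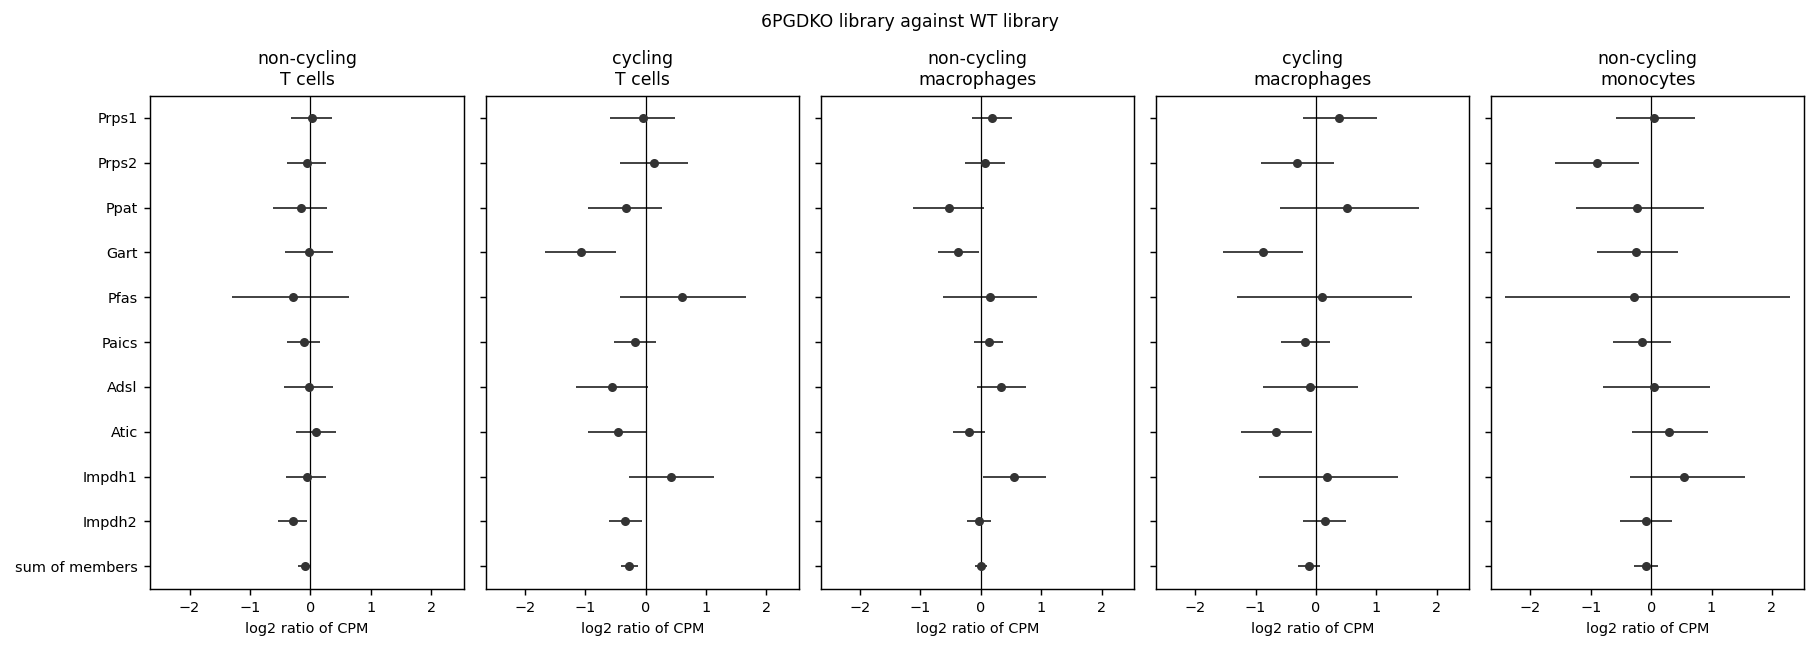
Log2 ratio of the level in the 6PGDKO library over that in the WT library for each gene and for their sum, in 5 groups of cells; points are the ratios of 1 library to 1 library, bars exact 95% counting intervals, and the vertical line marks no difference. The sum lies at 0 in non-cycling macrophages (0.01) and below 0 in cycling T cells (-0.27), and Gart lies left of 0 in cycling T cells (-1.06), cycling macrophages (-0.87) and non-cycling macrophages (-0.37).

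The neighbouring pathways were described through gene lists. The shares of all genes higher by a fold of 1.5 in cycling T cells were 21.0% in WT and 16.8% in 6PGDKO, with 14.5% and 13.1% lower, and in cycling macrophages 15.6% and 13.9% were higher. In cycling against non-cycling T cells, 10 of 11 serine, glycine and folate one-carbon genes with 30 UMIs were higher by a fold of 1.5 in WT and 8 of 11 in 6PGDKO, with medians of 0.98 and 1.30 (log2). These enzymes supply the glycine and formyl groups of the purine ring. Psat1, of serine synthesis, had log2 ratios of 1.97 (1.47 to 2.46) and 2.40 (1.86 to 2.96) and the mitochondrial folate enzyme Mthfd2 of 1.19 (0.86 to 1.51) and 1.53 (1.18 to 1.88). In macrophages 6 and 7 of 11 were higher, among them Psat1 with 1.98 (1.33 to 2.61) and 1.45 (0.79 to 2.08) and Mthfd2 with 1.04 (0.58 to 1.49) and 0.88 (0.51 to 1.25). Of 7 purine salvage genes 4 were higher in WT and 3 in 6PGDKO T cells, against the 21.0% and 16.8% of all genes. Hprt, which recycles hypoxanthine and guanine, had ratios of 0.95 (0.75 to 1.14) and 0.83 (0.64 to 1.02), close to the sum of the de novo genes. Dck, which phosphorylates deoxynucleosides, had 1.89 (1.48 to 2.31) and 1.74 (1.27 to 2.21). Of 6 purine breakdown genes 1 was higher and 1 lower in WT T cells and 2 and 2 in 6PGDKO T cells, counts too small to set apart from those shares. Samhd1, which hydrolyses deoxynucleotides, was lower in both, at -0.71 (-0.93 to -0.50) and -0.82 (-1.06 to -0.58).

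Gmps, which makes guanosine monophosphate from the product of the Impdh enzymes, had ratios of 0.95 (0.61 to 1.28) and 0.72 (0.37 to 1.07) in T cells. It belongs to a list of 5 genes of the adenine and guanine branches, of which 3 and 2 were higher. Of 6 genes of pyrimidine synthesis 5 and 3 were higher in T cells and 2 and 2 in macrophages, with Cad, which starts that pathway, at 1.49 (0.92 to 2.05) and 1.05 (0.49 to 1.61) in T cells. Deoxynucleotide genes differed most, with 5 of 6 higher in both types and libraries and medians of 3.66 and 3.43 in T cells and 3.05 and 2.78 in macrophages. For Rrm2, a subunit of ribonucleotide reductase, the T cell ratios were 5.21 (4.64 to 5.83) and 6.35 (5.35 to 7.57). Of the pentose phosphate genes 3 of 8 were higher in WT T cells and 2 of 7 in 6PGDKO T cells, where 21.0% and 16.8% of all genes were. Among them was Tkt, the transketolase of the non-oxidative branch, at 1.16 (0.96 to 1.35) and 0.89 (0.68 to 1.09), and in macrophages 1 of 8 and 0 of 8 were higher, at or below the 15.6% and 13.9% of all genes. Of the relatives of the Prps genes none of 3 was past the fold in either type or library. Of 4 transcriptional regulators with 30 UMIs only E2f1 was higher in both types and libraries, at 2.89 (2.25 to 3.54) and 2.25 (1.61 to 2.91) in T cells. As a reference, all 10 G1/S genes were higher in T cells of both libraries, by medians of 2.57 and 2.25.

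Between the libraries few genes of any kind passed the fold in non-cycling macrophages, with 5.57% of all genes higher and 3.68% lower, so that a count of 0 in a short list says little. There 0 of 5 branch genes, 0 of 7 salvage genes, 0 of 6 pyrimidine genes and 0 of 5 deoxynucleotide genes were past the fold in either direction. Of 8 pentose phosphate genes 1 was lower, Pgd itself. Of 6 breakdown genes 1 was higher, the guanine deaminase Gda at 0.82, and of 11 one-carbon genes 2 were lower. Gda was named after its values were seen.

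Over 23 groups of cell type, state and library with at least 50 cells, the genes whose level was most like the sum of the 10 were Set, with a Pearson r of 0.974 of log2(CPM + 5), Aarsd1 (0.973), Ssb (0.968), Ppia (0.966) and Atp5o (0.963), among 13521 genes. Over the 19 non-cycling groups they were Mdh1 (0.990), Hsp90ab1 (0.982), Cct2 (0.977), C1qbp (0.973) and Set (0.972). The groups share 2 libraries and differ in depth, and the neutrophils lie far below the rest. Without the neutrophil groups the r values were 0.893 for Set, 0.917 for Aarsd1, 0.886 for Ssb, 0.880 for Ppia and 0.871 for Atp5o over 21 groups. Over the 17 non-cycling groups they were 0.927 for Mdh1, 0.851 for Hsp90ab1, 0.804 for Cct2, 0.762 for C1qbp and 0.742 for Set. Each of the 10 genes was also set against the sum of the other 9. Paics followed them most closely, with an r of 0.914 over the 23 groups, then Atic with 0.841, and Impdh1 least, with 0.474, followed by Prps1 with 0.590. These r values include the neutrophil groups.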

How the data were processed

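Each library came as raw UMI counts per gene and barcode, which the authors made with Cell Ranger 6.1.2 (mm10, per the submitters' processing notes) and deposited without a cell filter of their own, with 12 multiplexing oligonucleotides that were left out here. Which end of the transcript was sequenced is not given in the sources used here. The 10 genes and the gene lists were chosen with earlier results of these data known.

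Barcodes with under 500 or over 7500 genes or over 15% mitochondrial UMIs were removed, as in the study's methods. The kept cells of both libraries are more than the study states, and the cause was not tested. Clustering used Seurat 5.3.0 in R 4.3.3 on 2000 variable genes, with 30 principal components, 20 neighbours and a resolution of 0.8. Before that, 167 genes of the cell cycle and nucleotide pathways were removed from the variable genes, so that the 10 genes did not define the types. Proliferation still did in part: clusters led by histone and mitotic genes held 190 cycling T cells and 88 cycling macrophages. A cluster was named for the lineage whose markers were found in a share of its cells that most exceeded the mean over clusters, if at least 3 of them were found in 25% of its cells and its 10 leading genes did not hold more markers of another lineage. A shallow cluster with no such marker among its leading genes would also stay unnamed. Cell types were rebuilt here and may differ from the study's. No doublet caller was run, and cells with 2 UMIs of defining markers of another lineage were left out as an alternative.

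UMIs were summed per cell type, state and library, in Python 3.11.15 with scipy 1.17.1. Groups of at least 20 cells were described. Intervals are exact: Poisson for levels, conditional binomial for ratios and Clopper-Pearson for shares. A gene was counted as higher or lower at a fold of 1.5 among genes with at least 30 UMIs over both groups. Named genes were all 10 members, the listed genes past that fold in the same direction in both libraries in T cells or macrophages (examples are given), and Pgd. The 10 members were also set against each other over groups of at least 50 cells. The ratio and its interval were tested on simulated counts drawn independently, as the interval assumes. That test cannot show how well the interval fits counts that gather in few cells. No test between genotypes was made, since each has 1 library. Alternatives changed the cell filter, the cycling threshold, the depth, the weight of cells, the scaling, the clustering, the count minimum and the cells with markers of another lineage. Some genes of the lists are not reported here by name.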

Additional observations from a re-analysis of the deposited data

Results flagged for a closer look

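Impdh2 differed between the libraries in opposite directions in different cells. The log2 ratio of 6PGDKO over WT was -0.29 in non-cycling T cells (223 and 445 UMIs), -0.34 in cycling T cells (214 and 249 UMIs) and 0.76 in non-cycling DCs (89 and 37 UMIs). In cycling T cells the interval, -0.61 to -0.07, included 0 without cells that carried markers of another lineage, at -0.29 (-0.63 to 0.04). The difference between the cell types was not tested, since each genotype is 1 library. Within the 4 non-cycling T cell clusters the ratios were -0.24, -0.05, 0.02 and 0.22, each with an interval that includes 0. Within the DCs the ratio was 1.42 (0.50 to 2.46) in the cluster led by Fscn1, Ccl22 and Ccr7, from 53 and 12 UMIs, and 0.38 (-0.39 to 1.18) in the cluster led by Xcr1. In that Fscn1 cluster Prps1 was lower in 6PGDKO, at -0.54 (-1.01 to -0.07).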

How the results depend on the processing

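With 1 library per genotype no replicate could be left out, and no paired analysis was possible because each group holds 1 sample. Of the summed log2 ratios and the counts of genes past a fold of 1.5, 122 of 140 alternative values stayed within the counting interval or within 1.5 times the count. Those that did not follow, and the cause was not tested. With cells thinned to 3000 UMIs the genotype ratio was -0.18 in non-cycling macrophages and -0.52 in cycling T cells, and the cycling ratio of 6PGDKO T cells 0.59. With clustering at resolution 1.6 the ratio in non-cycling monocytes was 1.56 (0.61 to 2.64), from the 51 and 26 cells that kept that name. Totals without mitochondrial and ribosomal protein genes gave -0.20 in non-cycling T cells and a cycling ratio of 0.79 in WT T cells. Cycling called at 1 UMI gave 0.67 in WT and 0.57 in 6PGDKO T cells. In macrophages the cycling ratio was 0.77 in WT without cells carrying markers of another lineage, and in 6PGDKO 0.56 at 10 UMIs and 0.61 with all variable genes. Scaled by the median ratio of all genes, 1 gene was lower in non-cycling macrophages (0 before), 0 were higher in cycling T cells (1 before) and 2 in cycling WT macrophages (5 before). At a minimum of 100 UMIs, 0 genes were lower in monocytes (1 before), 0 higher in cycling T cells, 1 lower in cycling macrophages (2 before) and 1 higher in cycling 6PGDKO macrophages (2 before). Among single genes, thinning reversed Impdh1 in non-cycling macrophages, to -0.026, and Prps2 in the cycling ratio of WT macrophages, to -1.18. Removal of the T cell cluster led by Lef1 and Tcf7 and of the macrophage cluster led by Retnla and Fn1, chosen after seeing the data, moved no summed ratio out of its interval. Of 30 ratios of single genes with an interval clear of 0, the interval then included 0 for 18 with cells thinned, for 12 with cycling called at 1 UMI, for 10 without cells carrying markers of another lineage, and for 2 to 6 under the other 6 planned settings with an interval. Depth limits the single genes: Pfas never passed 33 UMIs in a group.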
